A study of Caenorhabditis elegans with 2 samples.

Results

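The regions described here are the transfer RNA (tRNA) genes of Caenorhabditis elegans that lie wholly inside the span of a protein-coding gene. They are 290 of the 612 nuclear tRNA genes of the Ensembl annotation, they sit in 228 host genes, and the rule that picks them uses positions in the annotation. The other 322 tRNA genes are called between protein-coding genes, although 3 of them overlap a protein-coding gene in part. The measurement is chromatin immunoprecipitation sequencing (ChIP-seq) of CEH-9, a homeobox transcription factor, in 2 biological replicates that form the only group of the series. Worms of strain OP202, unc-119(ed3) III; wgIs202, expressed CEH-9 with a GFP-FLAG tag at its C-terminus from an integrated transgene, and their sonicated chromatin was immunoprecipitated through GFP. Whole late embryos of pooled male and female sex were taken 4.75 h after synchronization by egg bleaching. All values thus come from 1 transgenic line, no source used here gives the promoter that drives the transgene, and no untagged strain or second condition was analysed here. Peak lists cannot check the labelled stage against marker genes, and the depth of the libraries is unknown because the lists hold no read counts.

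A tRNA gene is transcribed by RNA polymerase III from a promoter that lies inside the gene. General factor TFIIIC reads an A box near the 5′ end and a B box in the T arm, TFIIIB is then placed just upstream of the gene, and a run of T after the 3′ end stops the polymerase. A tRNA gene in an intron therefore carries its own promoter within a gene that RNA polymerase II transcribes, on either strand. Homeobox proteins such as CEH-9 are known as regulators of RNA polymerase II genes.

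The sequences below introduce a comparison that runs through the results, in which tRNA genes with the same letters had different ranks. The identical members printed here all had pooled ranks of 210 or stronger. Sets that also hold unlisted members are given further on. The printed sequences were read from the RefSeq genome WBcel235, the assembly of the ce11 build, in the 5′ to 3′ direction of the tRNA. Capitals mark the match to an A box pattern and then to a B box pattern. In ZC455.t1 the A box match starts at base 16, against base 8 in the other genes printed, and may not mark the A box itself. F15G9.t1 (chrX:9743589-9743660, plus strand) and F15G9.t2 (chrX:9743747-9743818, plus strand) are alanine tRNA genes in 1 intron of him-4 and shared the summit of pooled rank 18. F15B9.t1 (chrV:13003509-13003580, minus strand), of pooled rank 47, lies in inft-2 and is identical to F15G9.t2. ZC455.t1 (chrV:12780386-12780467, minus strand) is a serine tRNA gene of pooled rank 37, and C02B4.t2 (chrX:12665228-12665311, plus strand) is a tyrosine tRNA gene of pooled rank 43.
F15G9.t1: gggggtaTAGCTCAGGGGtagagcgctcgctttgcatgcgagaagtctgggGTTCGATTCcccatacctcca
F15G9.t2: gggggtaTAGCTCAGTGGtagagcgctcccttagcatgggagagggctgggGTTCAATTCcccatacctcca
ZC455.t1: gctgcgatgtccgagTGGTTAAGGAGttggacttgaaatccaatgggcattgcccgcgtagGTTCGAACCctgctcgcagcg
C02B4.t2: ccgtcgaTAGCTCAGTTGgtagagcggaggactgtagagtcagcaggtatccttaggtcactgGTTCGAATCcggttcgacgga

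The pairs in the next lines show members with the same or nearly the same gene and different ranks. The histidine tRNA genes C06G1.t1 (chrX:16634830-16634901, minus strand) and W09G10.t1 (chrII:3521487-3521558, minus strand) have 0 differences and had pooled ranks 52 and 195. The threonine tRNA genes ZK563.t1 (chrX:3371422-3371493, minus strand) and R11B5.t1 (chrX:2528042-2528113, plus strand) have 0 differences and had pooled ranks 87 and 210. The leucine tRNA genes C04A2.t1 (chrII:6853204-6853285, plus strand) and C38C6.t1 (chrII:14635335-14635416, minus strand) differ by T16C, T35A and C50T, written as the base of C04A2.t1, the position from 1 at the 5′ end and the base of C38C6.t1. Their pooled ranks were 56 and 96, but the order turned in replicate 1, with ranks 139 and 43, against 53 and 705 in replicate 2. In the order named, the histidine pair had ranks 53 and 494 in replicate 1 and 58 and 237 in replicate 2. The threonine pair had ranks 135 and 156 in replicate 1 and 109 and 458 in replicate 2. B0212.t1 (chrIV:3552189-3552260, minus strand), of pooled rank 223, was the strongest proline tRNA gene inside a protein-coding gene.
C06G1.t1 and W09G10.t1: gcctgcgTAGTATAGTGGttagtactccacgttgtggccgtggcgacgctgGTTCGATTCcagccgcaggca
ZK563.t1 and R11B5.t1: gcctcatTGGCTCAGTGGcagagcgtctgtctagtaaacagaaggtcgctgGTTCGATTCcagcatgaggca
C04A2.t1: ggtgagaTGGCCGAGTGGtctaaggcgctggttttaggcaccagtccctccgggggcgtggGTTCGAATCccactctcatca
C38C6.t1: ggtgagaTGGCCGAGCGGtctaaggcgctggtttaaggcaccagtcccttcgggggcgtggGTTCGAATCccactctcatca
B0212.t1: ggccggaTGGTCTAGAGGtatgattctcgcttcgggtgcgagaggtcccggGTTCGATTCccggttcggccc

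Members with the same gene differed in the DNA before it. The 30 bases that precede the 5′ end are given for the identical histidine and threonine pairs, the side on which TFIIIB sits. Whether these bases relate to the ranks was not tested.
C06G1.t1 upstream: cataagcgacctctgtttctctcgctttcg
W09G10.t1 upstream: cttcaagacaccgagtggcgcacactttcg
ZK563.t1 upstream: tctacggagagaaaagtgtttctcttatgc
R11B5.t1 upstream: tgcttctttttcactcggcctctcaccagc

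A member was called listed when a peak summit lay within 100 bp of it, and the strongest such summit was kept. Peaks were ranked within a list by the authors' signal value, with rank 1 the strongest, because that value keeps the units of their peak caller and cannot be compared across lists. Each relaxed list holds 30000 peaks, a fixed number, so a weak entry carries little by itself. The list that passed the authors' threshold on the irreproducible discovery rate holds 207 peaks, which are the 207 strongest of the pooled list, and is called the reproducible list.

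tRNA genes inside protein-coding genes lay under CEH-9 summits far more often than other windows inside protein-coding genes, hosts or not. In the pooled list 141 of the 290 members were listed (48.6%, exact 95% interval 42.7 to 54.5%), against 136 of the 322 tRNA genes between protein-coding genes (42.2%, 36.8 to 47.8%). Of 843319 consecutive 73-bp windows inside protein-coding genes and off tRNA genes, 8.85% met the same condition. In the reproducible list the counts were 41 of 290 members (14.1%, 10.3 to 18.7%) and 50 of 322 genes between (15.5%, 11.8 to 20.0%), and the windows gave 0.0336%. The difference in reproducible share, inside minus between, was -1.39 percentage points (Newcombe 95% interval -7.01 to 4.32), so a position inside or between protein-coding genes was not told apart at this number of genes. The 41 members lay at 40 distinct summits, which were 19.3% of the reproducible list.

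Down the pooled list, both kinds of tRNA gene gained summits at similar ranks. The strongest 400 peaks held 51 members (17.6%) and 59 genes between (18.3%), the strongest 1000 held 70 (24.1%) and 68 (21.1%), and the strongest 5000 held 96 (33.1%) and 93 (28.9%). Among listed genes the median pooled rank was 1081 for members (95% interval 621 to 1530, range 16 to 29232) and 1011.5 for genes between (391 to 2209). For members it was 1443 in replicate 1 alone and 2393.5 in replicate 2 alone, and 6216 in the pooled list for members whose gene sequence occurs once. The pooled signal of members in the reproducible list had a median of 101 and ran from 74.3 to 176, against a median of 100 and a range of 73.7 to 226 for genes between.

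**Figure D1:**
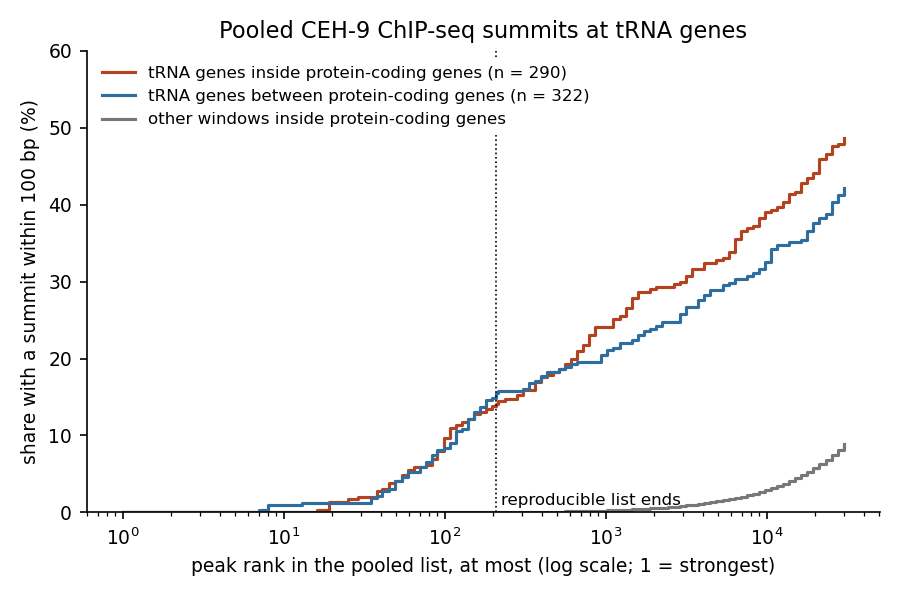
The horizontal axis is the rank in the pooled list on a log scale, and the vertical axis is the share of tRNA genes or windows with a summit within 100 bp at or above that rank. The lines for the 290 tRNA genes inside and the 322 between protein-coding genes run together up to rank 207 (dotted) and end at 48.6% and 42.2%, far above the grey line of windows, which ends at 8.85%.

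Each replicate on its own gave a similar picture. The relaxed list of replicate 1 held 124 members (42.8%) and 138 genes between (42.9%), beside 8.77% of windows. That of replicate 2 held 136 members (46.9%) and 123 genes between (38.2%), beside 8.85% of windows. Among the 207 strongest peaks of replicate 1 were 40 members (13.8%) and 43 genes between (13.4%), where windows gave 0.0401%. Among the 207 strongest of replicate 2 were 34 members (11.7%) and 37 genes between (11.5%), where windows gave 0.0375%. The strongest 207 of both replicates held 25 members (8.62%, exact 95% interval 5.66 to 12.5%) and 27 genes between (8.39%, 5.60 to 12.0%).

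Below the strongest peaks the replicates often disagreed on a member. Of the 290 members, 89 (30.7%) were listed in both replicates, 82 (28.3%) in 1 replicate only and 115 (39.7%) in no list at all. Among genes between, 100 (31.1%) were listed in both, 61 (18.9%) in 1 only and 159 (49.4%) in none. As a description, Spearman's rank correlation between the replicates was 0.679 over the 89 members listed in both, and 0.373 over the 41 in the reproducible list. The points share the choice by pooled signal, which both replicates entered. The replicate ranks differed by a median factor of 2.33 over those 41 members, by at most 2 for 17 of them and by more than 10 for 4. Over the 48 members listed in both replicates but outside the reproducible list, the correlation was 0.186. Their ranks differed by a median factor of 4.43, by at most 2 for 12 of them and by more than 10 for 14.

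**Figure D2:**
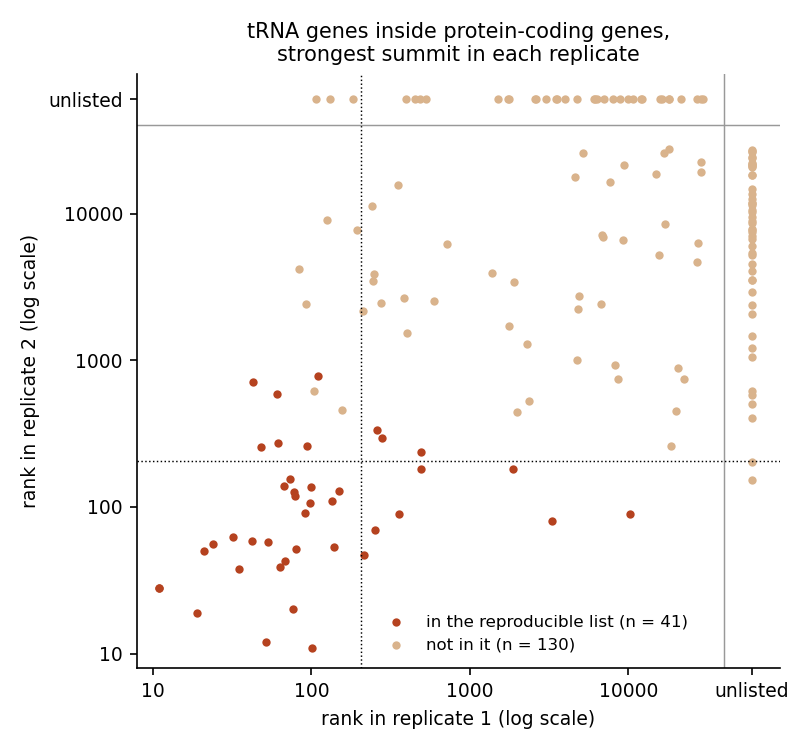
Each point is a tRNA gene inside a protein-coding gene, placed by its rank in replicate 1 (horizontal) and replicate 2 (vertical), both on log scales, with unlisted genes beyond the grey lines and rank 207 dotted. The 41 members of the reproducible list (dark) gather at the strong corner with 4 whose ranks differ by more than 10-fold, and the 130 other members listed in at least 1 replicate (light) spread widely.

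The strongest members came from many isotypes and many kinds of host. T21B4.t1, an isoleucine tRNA gene in an intron of the collagen gene col-85, ranked 16 in the pooled list (signal 176), 19 in replicate 1 (67.0) and 19 in replicate 2 (110), the only equal pair of replicate ranks among the 15 strongest. F15G9.t1 and F15G9.t2, in the extracellular matrix gene him-4 (hemicentin), shared a summit of pooled rank 18 (signal 171) that ranked 11 in replicate 1 (72.6) and 28 in replicate 2 (102). That summit lay between the genes, 125 bp past the 5′ end of F15G9.t1 and 33 bp before that of F15G9.t2. The asparagine tRNA gene F41D9.t3, in the anion transporter gene sulp-3, ranked 19 in the pooled list (signal 171), 52 in replicate 1 (47.3) and 12 in replicate 2 (124).

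A strong pooled rank did not require equal strength in both embryo samples. The glycine tRNA gene F17H10.t1, in the sorting nexin gene snx-17, ranked 24 in the pooled list (signal 163), 101 in replicate 1 (37.3) and 11 in replicate 2 (128). The glutamate tRNA gene C28G1.t1 ranked 28 in the pooled list (signal 153), 21 in replicate 1 (64.7) and 50 in replicate 2 (84.9). It lies in a non-coding exon of C28G1.2, while most members lie in introns. The cysteine tRNA gene C37A2.t1, in the cyclin E gene cye-1, ranked 36 in the pooled list (signal 144), 77 in replicate 1 (40.4) and 20 in replicate 2 (108).

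sup-5 is a tryptophan tRNA gene known from mutations of its anticodon that suppress amber stop codons, and it lies in fli-1, the gene of a gelsolin-family actin regulator. It ranked 39 in the pooled list (signal 141), 24 in replicate 1 (61.7) and 56 in replicate 2 (82.1). sup-7, a second known amber suppressor gene with the same tRNA sequence, was looked up after its values were seen. It lies in C03B1.2 and ranked 117 in the pooled list (signal 90.8), 358 in replicate 1 (26.6) and 90 in replicate 2 (70.9), so it was weaker than sup-5 in every list. These were the 2 of 7 tryptophan members in the reproducible list, against 0 of 5 between. Of the 6 members with this sequence 3 were listed, the weakest at pooled rank 7485 in trk-1, which holds sup-28 and sup-33. Between protein-coding genes, sup-24 and sup-29 carry the same sequence and had pooled ranks 1356 and 15238, outside the reproducible list.

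The members whose sequences are printed above covered several more isotypes. ZC455.t1 (serine) ranked 37 in the pooled list (signal 144), 32 in replicate 1 (56.4) and 62 in replicate 2 (80.3). C02B4.t2 (tyrosine), in the nuclear hormone receptor gene nhr-17, ranked 43 in the pooled list (signal 137), 35 in replicate 1 (53.7) and 38 in replicate 2 (92.8). F15B9.t1 (alanine), in the formin-family gene inft-2, ranked 47 in the pooled list (signal 134), 42 in replicate 1 (51.4) and 59 in replicate 2 (81.4). The replicate ranks of C02B4.t2 and F15B9.t1 lay close together, while ZC455.t1 was stronger in replicate 1. C06G1.t1 (histidine) ranked 52 in the pooled list (signal 130), 53 in replicate 1 (47.1) and 58 in replicate 2 (81.4). C04A2.t1 (leucine) ranked 56 in the pooled list (signal 127), 139 in replicate 1 (32.6) and 53 in replicate 2 (84.2).

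The rest of the 15 strongest were a glutamine and a methionine tRNA gene. R04A9.t1 (glutamine), in ZK1193.2, ranked 45 in the pooled list (signal 134), 63 in replicate 1 (43.3) and 39 in replicate 2 (92.5), and its summit lay 131 bp past its 5′ end, beyond the gene. T15B12.t1 (methionine), in T15B12.1, ranked 50 in the pooled list (signal 131), 68 in replicate 1 (42.5) and 43 in replicate 2 (89.7). Of the isotypes with at least 10 members, the strongest arginine gene was F29C4.t1 in the collagen gene col-99 (pooled rank 58, replicate ranks 80 and 52). The strongest threonine gene was ZK563.t1 (pooled rank 87, replicate ranks 135 and 109), and the strongest valine gene was C05G6.t1 in C18H7.1 (pooled rank 90, replicate ranks 73 and 154). The strongest aspartate gene was F38G1.t2 in egl-17, a fibroblast growth factor gene (pooled rank 104, replicate ranks 62 and 273).

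Members just inside the reproducible list differed little in signal from those just outside it. W09G10.t1 and Y104H12A.t1, in the collagen gene col-72 and the nuclear hormone receptor gene nhr-41, were the last inside, with pooled ranks 195 and 202 and signals 74.9 and 74.3. R11B5.t1 and B0212.t1, in the Rab GTPase-activating protein gene tbc-12 and the sensory channel gene osm-9, were the first outside, with pooled ranks 210 and 223 and signals 73.3 and 72.5. In replicate 1 the inside pair was weaker, at ranks 494 and 260, against 156 and 104 for the outside pair. In replicate 2 the inside pair was stronger, at ranks 237 and 337, against 458 and 614 for the outside pair.

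A few members of the reproducible list ranked far apart in the replicates. C02D4.t1, an isoleucine tRNA gene in the tyramine receptor gene ser-2, had pooled rank 129, with ranks of 10295 in replicate 1 and 89 in replicate 2. F22G12.t1, a valine tRNA gene in F22G12.4, had pooled rank 98, with ranks of 3307 in replicate 1 and 80 in replicate 2. C38C6.t1, in the serpentine receptor gene sre-13, had pooled rank 96, with ranks of 43 in replicate 1 and 705 in replicate 2. Of the 41 members, 25 were among the strongest 207 of both replicates, 13 of exactly 1 and 3 of neither.

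Summits were sought only within 100 bp of the gene, which bounds their positions. Within that span, most summits of reproducible members sat on the tRNA gene itself or just before it. For the 41 reproducible members the median summit position was 5 bp past the first base of the tRNA (95% interval -19 to 37, range -39 to 131), counted in the direction of tRNA transcription. Of these summits 17 lay upstream of the gene, 21 inside it and 3 downstream. For the 50 genes between, the median was 30 bp (9 to 38), with 14 upstream, 32 inside and 4 downstream, and the intervals of the medians overlap. For the members among the 207 strongest peaks of replicate 1 alone the median was 27.5 bp (2 to 42), and for those of replicate 2 alone it was 7 bp. The other 100 listed members had a median of 27 bp (9 to 42), with 33 upstream, 43 inside and 24 downstream. The deposited summit was the middle of the peak interval for 200 of the 207 reproducible peaks, and intervals were mostly 420 bp wide, so positions of single summits are coarse beside a gene of median length 73 bp.

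**Figure D3:**
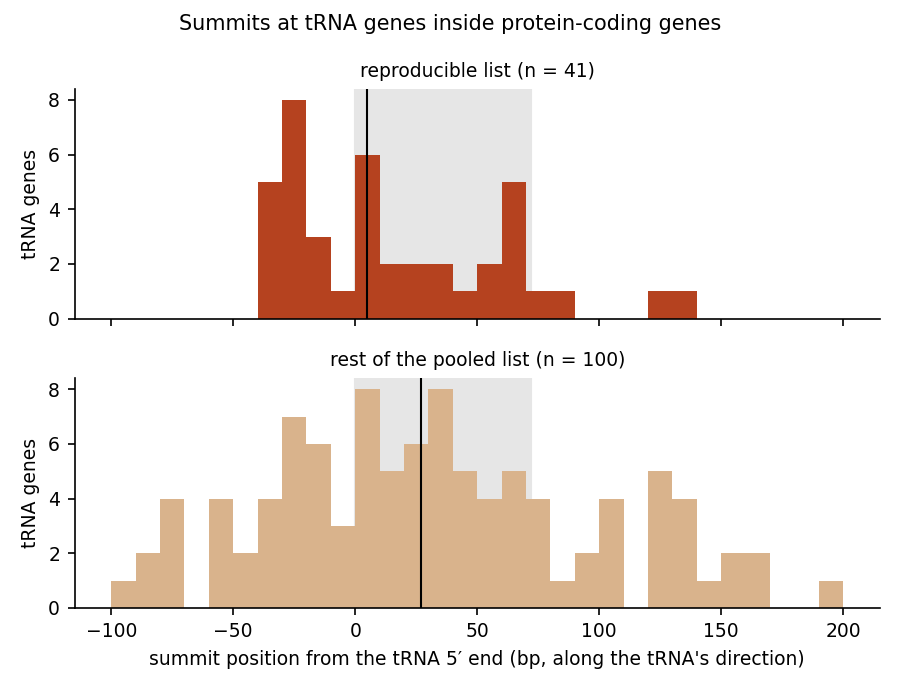
Bars count tRNA genes inside protein-coding genes by the distance of their strongest summit from the tRNA 5′ end in bins of 10 bp, with negative values upstream, the median as a black line and the typical extent of the gene in grey. The 41 reproducible summits (top) have a median of 5 bp and the other 100 listed summits (bottom) a median of 27 bp with a wider spread.

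Only 3 of the 141 listed members shared their pooled summit with another tRNA gene within 100 bp, and 0 of 141 (exact upper limit 2.58%) had a snoRNA, snRNA, ribosomal RNA or microRNA gene within that distance of it. Listed and unlisted members were similarly often near the start of a protein-coding gene. Within 1 kb of a protein-coding transcription start lay 17 of 41 reproducible members (41.5%), 41 of the other 100 listed members (41.0%) and 69 of 149 unlisted members (46.3%). Among genes between, 99 of 322 (30.7%) lay within 1 kb of one.

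Almost all members were intronic. By the annotation 283 of 290 (97.6%) lay wholly in introns, 7 touched a non-coding exon and 0 touched a coding exon. Of those 7, 6 were listed, and C28G1.t1 and Y69A2AR.t2 were reproducible. Y69A2AR.t2, a glutamate tRNA gene in the spindle checkpoint gene mdf-2, had pooled rank 72, with ranks of 149 in replicate 1 and 129 in replicate 2, and was looked up after its values were seen. The holding intron had a median length of 516 bp (range 115 to 20089), and the tRNA gene lay a median of 72 bp from the nearest splice site. That distance was 60.5 bp for reproducible members, 52 bp for the other listed members and 96 bp for unlisted ones.

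The strand of the host made no difference that could be resolved. Members on the strand opposite to the host were listed in 62 of 123 cases (50.4%) and reproducible in 21 (17.1%, exact 95% interval 10.9 to 24.9%). Members on the same strand were listed in 78 of 166 cases (47.0%) and reproducible in 20 (12.0%, 7.52 to 18%). A further 1 member, listed but not reproducible, has hosts on both strands and was counted as same strand in the differences. The difference, opposite minus same, was 5.10 percentage points (-2.98 to 13.7). It was 1.46 points among the 207 strongest peaks of replicate 1 alone, and its sign turned, to -11.9 points (-25 to 3.9), among members whose gene sequence occurs once. Summits lay at a median of 9 bp for the 21 members on the opposite strand and 5 bp for the 20 on the same strand, measured along the tRNA in both cases.

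Members were spread over all chromosomes. On X 17 of 96 members were reproducible (17.7%, 10.7 to 26.8%), against 24 of 194 on the autosomes (12.4%, 8.09 to 17.8%), a difference of 5.34 percentage points (-2.98 to 15). Among the 207 strongest peaks of replicate 1 alone the difference was 10.5 points (1.94 to 20.3), an interval that leaves out 0, and among those of replicate 2 alone it was 5.83 points (-1.92 to 15.1). Of the autosomes, III had 7 of 42, IV 6 of 34, II 5 of 31, V 4 of 48 and I 2 of 39. Between protein-coding genes the shares were 17.2% on X and 13.4% on the autosomes.

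Matches to the patterns of the promoter elements within the gene were found in nearly all members, listed or not. The B box was searched as GTTCNANNC on the tRNA strand, and 279 of 290 members held it (96.2%), at a median start of base 53. A loose A box pattern matched in 278 (95.9%), at a median start of base 8 and a range of 3 to 16, so some matches may lie off the A box. A T run (TTTT within 25 bases after the gene) was found in 288 (99.3%). Of the 73-bp windows inside protein-coding genes, 1.28% held the B box, 1.87% the A box and 29.7% the T run. All 3 elements were found in 39 of 41 reproducible members (95.1%), in 94 of the other 100 listed members (94.0%) and in 135 of 149 unlisted members (90.6%). Of the 11 members without these B box letters, 5 were listed and 2 were reproducible, T15B12.t1 and Y69A2AR.t2.

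The same tRNA gene sequence lay under a summit in some places and was unlisted in others. Compared from annotated end to annotated end, the 290 members have 120 distinct gene sequences. Of these, 42 occur in at least 2 members, 212 members in all. Of the 42 sequences, 32 had both listed and unlisted members, 5 had all members listed and 5 had none. In the reproducible list, 23 sequences had members inside and outside it, 1 had all its members inside and 18 had none.

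The largest sets of identical members showed the full range of ranks. The isoleucine set of 13 members had 6 listed and 2 reproducible, with T21B4.t1 at pooled rank 16 and T16D1.t1, in the acid phosphatase gene pho-4, in no list. F33G12.t1, a reproducible isoleucine member of pooled rank 101, is counted apart. Like that set it has 20 copies in the genome, but its A and B box matches start at bases 7 and 53, against 8 and 54, so its annotated ends may be shifted. The lysine set of 12 members had 6 listed and 1 reproducible. Its strongest, K08E7.t1 in the ABC transporter gene pgp-1, had pooled rank 82, with ranks of 251 in replicate 1 and 70 in replicate 2, and C17D12.t1 in the sperm gene spe-9 was in no list. The glycine set of 12 members had 5 listed and 1 reproducible. Its strongest, Y82E9BR.t1 in lelo-2, had pooled rank 124, with ranks of 61 in replicate 1 and 584 in replicate 2, while C12C8.t1 in uggt-2 was listed in replicate 1 alone, at rank 16340.

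**Figure D4:**
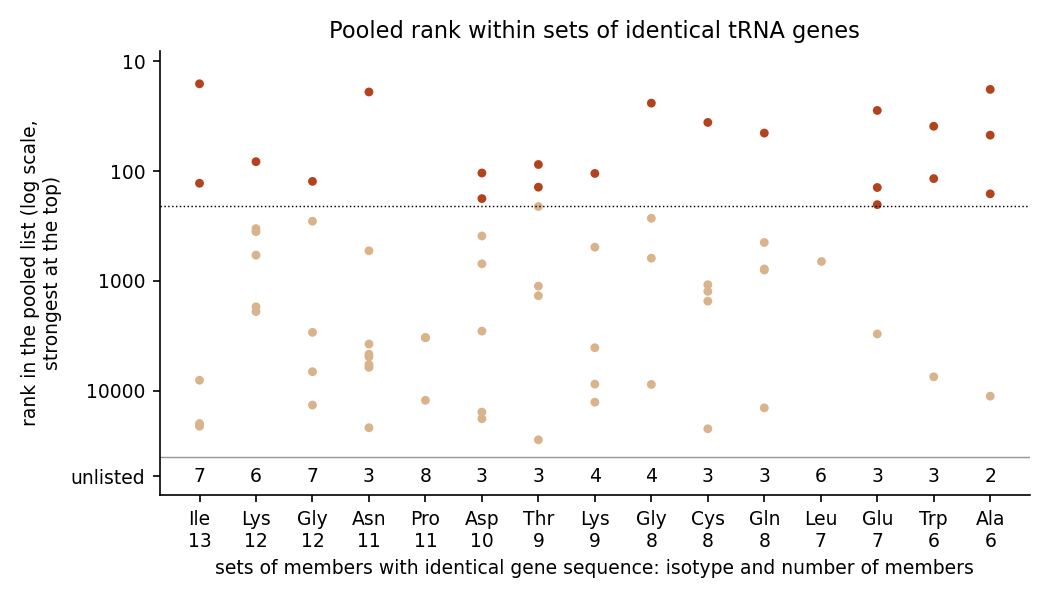
Each column is a set of at least 6 tRNA genes inside protein-coding genes that have identical gene sequence, and each point is a member's rank in the pooled list on a log scale with the strongest at the top, dark where it is in the reproducible list. The numbers below the grey line count unlisted members, such as 7 of 13 in the isoleucine set, and most columns run from strong to unlisted.

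Identical sequence also allowed a comparison of place. Copies both inside and between protein-coding genes were found for 50 sequences, with 217 copies inside and 236 between. Inside, 120 copies (55.3%, exact 95% interval 48.4 to 62.0%) were listed and 35 (16.1%, 11.5 to 21.7%) were reproducible. Between, 105 copies (44.5%, 38 to 51.1%) were listed and 39 (16.5%, 12.0 to 21.9%) were reproducible. A reproducible copy was found in both places for 14 of the 50 sequences, inside alone for 12, between alone for 8 and in neither for 16. Copies of 1 sequence are not independent, and these intervals cover the counting of genes only.

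Members with many copies in the genome were listed more often than members with a sequence of their own. Of the 65 members whose gene sequence occurs once, 29.2% were listed and 7.69% reproducible. The shares were 46.5% and 14.1% for the 71 members with 2 to 9 copies, and 57.8% and 16.9% for the 154 members with 10 or more. Among genes between, the reproducible shares for the same classes were 10.7%, 23.2% and 13.9%. Words of 36 bases within the gene were mostly repeated elsewhere, with a median of 0% of them unique, so short reads inside a member could often be placed only through its flanks. All 36-base words of the 100-bp flanks were unique for 266 members, of which 51.1% were listed and 15.4% reproducible, and not all unique for 24 members, of which 20.8% were listed and 0 were reproducible. The part of read placement in these shares was not tested.

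By isotype, the reproducible share of members ran from 0 to 33.3%, beside 14.1% of all 290 members. Alanine had 5 of 15 members in the reproducible list (33.3%, exact 95% interval 11.8 to 61.6%), against 4 of 19 genes between (21.1%, 6.05 to 45.6%). Glutamate had 4 of 12 members (33.3%, 9.92 to 65.1%), against 3 of 29 between (10.3%, 2.19 to 27.4%), and phenylalanine had 2 of 6 members, against 1 of 8. Serine and threonine each had 3 of 15 members. The intervals of alanine and of glutamate inside and between overlapped. Those inside also took in the 14.1% of all members, as did that of proline inside (0 to 15.4%).

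Proline and histidine tRNA genes differed in opposite directions in the comparison of place, and both were picked out after their values were seen. Histidine was not alone in its direction, since tryptophan also had 2 of 7 members in the reproducible list, against 0 of 5 between. Proline had 0 of 22 members in the reproducible list (exact upper limit 15.4%), against 7 of 20 genes between (35.0%, 15.4 to 59.2%), and 6 of 22 listed members (27.3%), against 10 of 20 (50%). Within 1 proline sequence, 11 copies inside had 3 listed and 0 reproducible, and 13 copies between had 7 listed and 4 reproducible. Many proline members share a host with other tRNA genes. pygl-1, T22F3.2, clpp-1, gcy-4 and avr-15 held 2 each and srxa-9 held 3, with 0 in the pooled list. Those in rsa-2 (pooled ranks 3297 and 12262) and F14B4.1 (423) were listed there. The part of shared hosts and of repeated flanks in the proline values was not tested. Histidine had 5 of 7 members listed in the pooled list and 2 reproducible, C06G1.t1 and W09G10.t1, against 0 of 13 between in either list (exact upper limit 24.7%). The replicate lists did hold histidine genes between: Y7A9D.t1 at rank 144 and Y65A5A.t4 at rank 651 in replicate 1 alone, and C49F5.t1 at rank 25428 in replicate 2 alone. No adjustment was made over the isotypes, and no test of these differences was made. Lysine had 2 of 26 members in the reproducible list, against 6 of 20 between, glycine 2 of 27, against 4 of 28, and arginine 1 of 21, against 3 of 23.

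**Figure D5:**
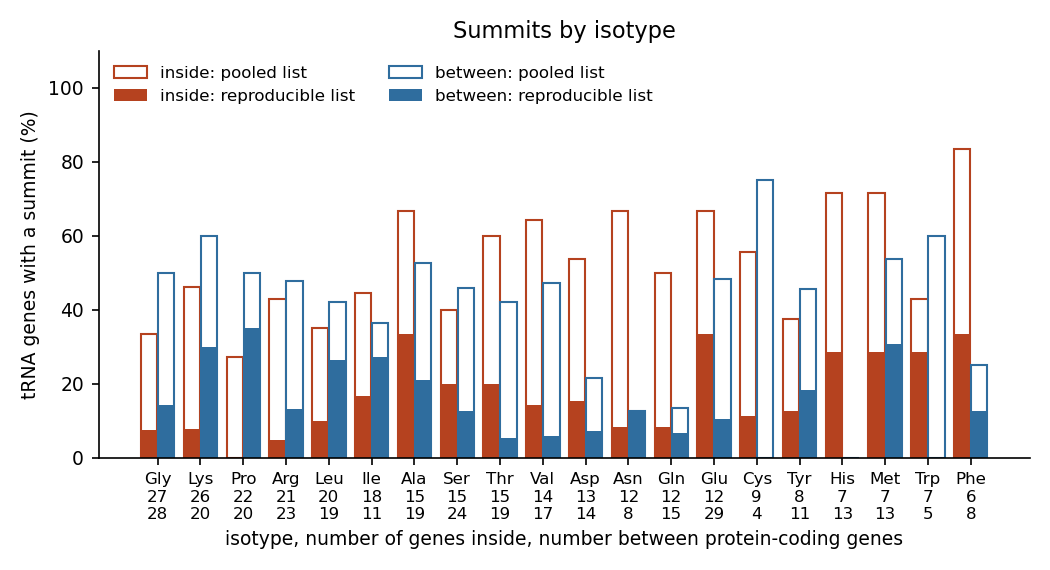
For each isotype, ordered by its number of members, bars give the percentage of tRNA genes in the pooled list (open) and in the reproducible list (filled), inside protein-coding genes on the left of each pair and between them on the right, with the numbers of genes under the name. Proline has no filled bar inside and 35.0% between, and histidine has bars inside and none between in these 2 lists.

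Hosts that hold several tRNA genes gave fewer listed members than hosts that hold 1, a split that was chosen after the values were seen. Of the 110 members in hosts of at least 2, 34.5% were listed and 7 were reproducible (6.36%, exact 95% interval 2.60 to 12.7%). Of the 180 members alone in their host, 57.2% were listed and 34 were reproducible (18.9%, 13.5 to 25.4%). The difference, shared minus alone, was -12.5 percentage points (-19.7 to -4.54). It was -20.1 points (-34.2 to -4.83) on X and -9.56 points (-17.7 to 0.451) on the autosomes, where the interval takes in 0. Members in shared hosts lay a median of 446 bp from the next tRNA gene, and members alone in their host a median of 54750 bp, and their flanks were all unique in 87.3% and 94.4% of cases.

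The same values were also counted per host, where a host of several members has more chances to hold a listed one, so these shares do not measure the difference per member. At least 1 member was listed in 29 of 46 hosts of several members (63.0%, 47.5 to 76.8%), against 105 of 182 hosts of 1 member (57.7%, 50.2 to 65.0%). At least 1 was reproducible in 6 of 46 (13.0%, 4.94 to 26.3%), against 34 of 182 (18.7%, 13.3 to 25.1%). Genes between showed the same ordering by spacing, with 22 of 193 reproducible (11.4%) where the next tRNA gene lay within 5 kb and 28 of 129 (21.7%) where it lay farther. For members the values were 13 of 132 (9.85%) and 28 of 158 (17.7%). No pair of summits in the pooled list lay closer than 199 bp, and 18 members have their next tRNA gene nearer than that. The part of peak spacing in these shares was not tested.

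The 14 hosts with at least 3 members held 46 of them. In the pooled list 12 of these were listed (26.1%), and 1 was reproducible (2.17%), against 48.6% and 14.1% of all members. Listed refers to the pooled list in what follows. K01A12.3 and ajm-1, which encodes a component of apical junctions, held 5 members each, with 1 listed in each at pooled ranks 22272 and 796. The only reproducible member was in brd-1, the BARD1 ortholog, where K04C2.t3 had pooled rank 105 and both other members were unlisted. K04C2.t2 had rank 27007 in replicate 1 alone, and K04C2.t1 had rank 21317 in replicate 2 alone. tbc-12 had 2 of 3 members listed, at pooled ranks 210 and 6073, and spe-9 had 2 of 3, at 765 and 1903. The ion channel gene unc-58, pix-1, the hedgehog-related gene wrt-9, the serpentine receptor gene srv-16 and nimk-1 had 1 of 3 listed each, at pooled ranks 1285, 334, 19945, 18039 and 12745 in that order. The degenerin channel gene deg-1, the microRNA-processing gene pash-1, the peroxidasin gene pxn-1 and srxa-9 had 0 of 3.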

How the data were processed

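The authors deposited peak lists in the ce11 and ce10 builds: a relaxed list per replicate, a pooled relaxed list and a list thresholded on the irreproducible discovery rate. Per the labels, 2 biological replicates were made. Each peak has a signal value, as deposited by the authors, used here only to rank peaks within a list, and a summit position. No aligner, peak caller, version or threshold is named by the sources used here. The ce10 lists and the control were not used here. Depth is unknown, and intervals (exact Clopper-Pearson or Newcombe, 95%) cover the counting of genes only. The series has 1 group, so no test over samples was made.

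Genes came from Ensembl release 115, and isotypes and sequence from RefSeq WBcel235, which matched 607 of 612 tRNA genes (287 of 290 members). An intron length is that of the shortest annotated intron that holds the tRNA gene. Words of 36 bases are an assumed read length. The members and lists were chosen with earlier results of these data known. Named were the 15 strongest members, the 2 on each side of the reproducible threshold, the extremes of the 3 largest identical sets, hosts of at least 3 members, the 3 largest replicate rank ratios, and the strongest of each isotype with at least 10 members. Alternatives changed the distance, the list, the replicate, the number of strongest peaks and the members kept. The summit search was tested on simulated data. The work used matplotlib 3.10.9, scipy 1.17.1 and numpy 2.4.6 under Python 3.11.15.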

Additional observations from a re-analysis of the deposited data

How the results depend on the processing

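Of 67 alternatives over 9 results, 57 stayed within the stated spread, 10 moved beyond it and 0 turned a called direction. A direction was called only where the reported interval left out 0, which held for the difference by shared hosts alone. A change of sign in the other differences could therefore not count as turned. The share of members in the pooled list (48.6%) was 40% at a distance of 50 bp and 55.2% at 200 bp. With the 65 members whose gene sequence occurs once, it was 29.2%, the reproducible share was 7.69%, the share among the strongest peaks of both replicates was 4.62%, the median pooled rank was 6216, and the difference opposite minus same strand was -11.9 percentage points (-25 to 3.9), the other sign from the reported 5.1. That share of both replicates was 13.8% with the strongest 1000 of each. The median rank was 1443 to 2393.5 in 1 replicate alone. The difference by shared hosts, chosen after seeing the data, was -20.1 points on X alone and -9.56 (-17.7 to 0.451) on the autosomes. In replicate 1 alone the difference X minus autosomes was 10.5 points (1.94 to 20.3, reported 5.34), opposite minus same strand 1.46 and the median summit position 27.5 bp (reported 5). Causes were not tested. The difference inside minus between (-1.39) was 0.439 in replicate 1 alone and 0.233 in replicate 2 alone. Unknown depth, 2 replicates and summits set mostly at interval middles limit positions and weak entries.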
